A study of Mus musculus with 6 samples.

Results

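This account describes 38 genes of brain blood vessels in the hippocampus of Phf8 knockout (KO) and wild-type (WT) mice. They were listed by name as 19 genes of endothelial identity, 8 of the blood-brain barrier and 11 of pericytes and vascular smooth muscle, and every probe set whose only gene symbol was a listed one was taken. This gave 64 of the 45037 probe sets, from 37 of the 38 genes. The genes were chosen by cell type, with the KO minus WT differences of these arrays already known, and Ctla2a was selected on its lower signal in KO. Its difference is therefore a description, with no p-value, and the counts of the other genes are descriptions of these arrays too.

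The samples were hippocampus from 3 Phf8 KO and 3 WT mice or pools of mice, all on a C57BL/6 background and 10 weeks old, with 1 Affymetrix array for each sample. Per the study's methods, the KO allele lacks exons of the JmjC demethylase domain of Phf8 throughout the body, after germline deletion with EIIa-Cre in a line made from 129/S6/SvEv stem cells and backcrossed to C57BL/6J. The animals were hemizygous males and their wild-type littermates. The methods can be read as 1 mouse or several mice to an array, so the p-values measure the spread between these samples only.

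Endothelial cells line the vessels of the brain and are joined there by tight junctions, which, with carriers and efflux pumps, form the blood-brain barrier. VEGF, angiopoietin and Notch signals maintain them, and transcription factors of the ETS and SOX families, such as Erg, Fli1, Sox17 and Sox18, set their identity. Pericytes sit on capillaries and smooth muscle cells wrap arterioles, where they set vessel tone. Tissue RNA comes from many cell types, so fewer vascular cells and less RNA per vascular cell cannot be told apart in these samples.

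Of the vascular genes, Ctla2a was lower on all KO arrays, while the remaining endothelial, barrier and mural genes stayed close to their WT level as groups. Ctla2a encodes a small inhibitor related to the propeptide of cathepsin L. It has a near copy in the mouse genome, Ctla2b, and both lie on chromosome 13. The sequences upstream of their starts are shown because the signals of both genes were lower in KO. The likeness of the transcripts, which the probe sets measure, was not compared. They run 5′ to 3′ and end at the base before an annotated start, with the AP-1 motif TGACTCA and the ETS motif AGGAAG, on either strand, in capitals. The Ctla2a sequence is chr13:60936567-60936816 and the Ctla2b sequence is chr13:60897448-60897697, both on the minus strand of GRCm38.p6, from RefSeq. Ctla2a has 2 annotated starts, and the window of the downstream one is shown.
Ctla2a: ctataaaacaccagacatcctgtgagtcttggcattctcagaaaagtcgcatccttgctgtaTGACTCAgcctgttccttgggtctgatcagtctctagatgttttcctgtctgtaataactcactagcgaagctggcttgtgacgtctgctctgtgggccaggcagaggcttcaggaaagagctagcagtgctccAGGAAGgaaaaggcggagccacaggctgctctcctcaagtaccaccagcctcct
Ctla2b: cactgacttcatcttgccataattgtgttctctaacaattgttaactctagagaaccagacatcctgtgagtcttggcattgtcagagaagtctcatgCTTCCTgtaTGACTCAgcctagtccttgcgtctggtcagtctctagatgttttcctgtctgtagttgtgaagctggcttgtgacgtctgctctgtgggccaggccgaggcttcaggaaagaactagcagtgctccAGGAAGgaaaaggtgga
Over 205 aligned bases, 186 (90.7%) were identical. Each window held 1 AP-1 motif, which 4.46% of the 32851 promoter windows of this length hold. The ETS motif stood once in the Ctla2a window shown, 0 times in the window of the other Ctla2a start, and at 2 places in that of Ctla2b, against 29.5% of all windows that hold it at least once. Among the listed genes, 27 had such windows. The ETS motif stood in 11 of 18 windows of endothelial genes (61.1%, from 12 genes), 5 of 10 of barrier genes and 0 of 8 of pericyte and smooth muscle genes. A motif match describes these letters and is not a binding site.

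Phf8 itself was lower in each KO sample. The bright probe set of Phf8 had log2 MAS5 signals of 8.23, 8.55 and 7.99 on the KO arrays and 9.90, 9.66 and 9.73 on the WT arrays. MAS5 signal is the summary of the probes of a probe set, given here on the log2 scale, so that a difference of 1 is a doubling. KO replicate 3 was the array least like the others. Over genes it correlated at 0.925 to 0.94 with the remaining 5 arrays, which correlated at 0.976 to 0.987 with each other. On it, 14 markers of the thalamus had a median 2.38 above the WT mean and 9 markers of the choroid plexus, whose vessels are fenestrated, had a median of -1.99.

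Dim probe sets were left out. Those kept had, for at least 3 of the 6 arrays, a signal over that array's 40th percentile, a log2 signal between 5.73 and 6.05. Of the 64 probe sets of vascular genes 55 did, from 35 of the 38 genes. Each gene was represented by its brightest one, and KO was compared with WT by limma over 12903 genes. All 35 lay above the filter level of each array on all 6 arrays, and 29 of them by more than 1. Cldn5, the main tight junction protein of brain endothelium, averaged 9.21 ± 0.37 on KO arrays and 9.16 ± 0.22 on WT arrays (SD, n = 3 each), and Rgs5, a pericyte marker, averaged 11.96 ± 0.29 and 12.03 ± 0.02 on KO and WT arrays (SD, n = 3 each).

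3 genes were not measured. Ly6c1, a surface antigen of brain endothelium, has only a probe set shared with Ly6c2. That shared probe set is assigned to both genes and does not single out either. It had log2 signals of 11.29, 11.18 and 11.68 on KO arrays and 11.74, 11.84 and 11.65 on WT arrays. KO replicate 3 overlapped WT. Anpep, an aminopeptidase of pericytes, and Tie1, an orphan receptor tyrosine kinase of endothelium, lay below the filter. Tie1 had log2 signals of 5.03, 4.71 and 5.19 on KO arrays against 4.14, 4.26 and 3.53 on WT arrays. The groups did not overlap, at a signal that depends on the background.

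Ctla2a had log2 signals of 8.12, 8.21 and 8.23 on the KO arrays, against 9.41, 9.57 and 9.30 on the WT arrays. The highest KO array lay 1.07 below the lowest WT array, and the SD of the 3 KO values was 0.06. The difference of the means was -1.24 (standard error 0.13 from limma), a fold of 2.36, and it ranged from -1.30 to -1.17 when each array was left out in turn. Its 3 values in KO were 1.31, 1.21 and 1.20 below the WT mean in replicates 1, 2 and 3. On the same arrays the other 16 measured endothelial genes had medians of 0.23, 0.04 and -0.10 relative to WT. Ctla2a lay below all 16 in KO replicates 1 and 2, and below all but Fli1 in KO replicate 3. On the WT arrays 3, 12 and 8 of the 16 lay below it.

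Ctla2b moved the same way, on a dimmer probe set. It had log2 signals of 6.77, 6.83 and 6.53 on KO arrays and 7.46, 7.57 and 7.70 on WT arrays, with no overlap. The difference was -0.87 (standard error 0.19, adjusted p = 0.425 over 12903 genes from limma), which did not pass. A probe set that the gene table pairs with both genes had 8.10, 8.09 and 8.44 on KO arrays and 9.64, 9.53 and 9.33 on WT arrays. Whether probes of one gene take up RNA of the other was not tested, so how the fall divides between Ctla2a and Ctla2b cannot be told apart.

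**Figure D1:**
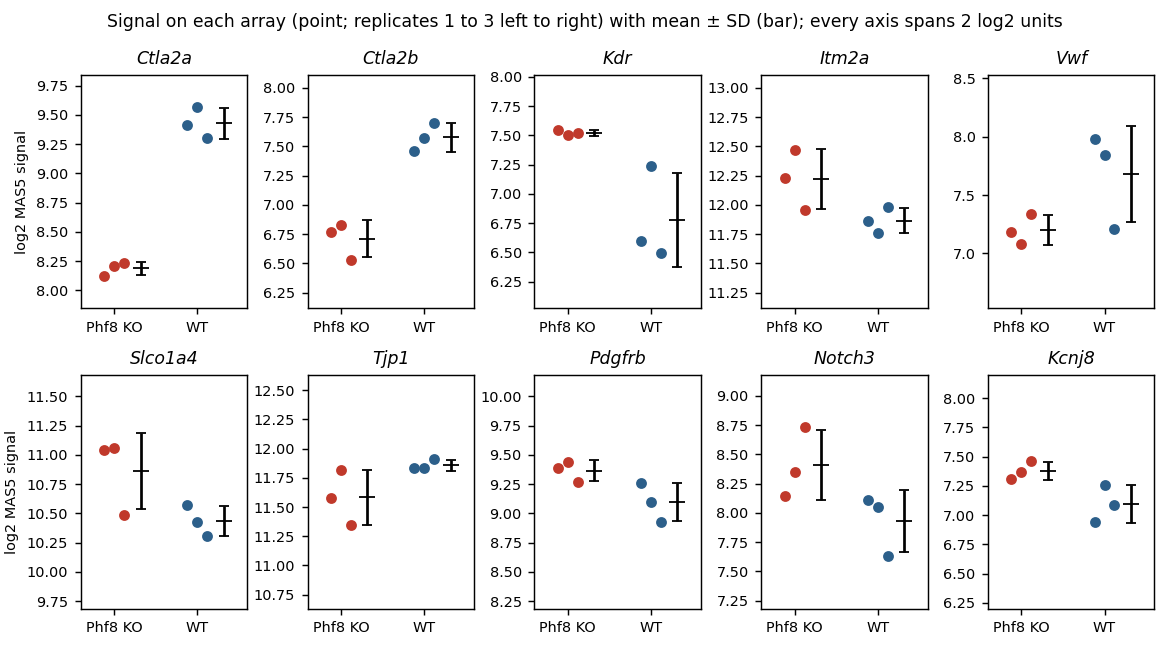
Log2 MAS5 signal (y axis, spanning 2 units in each panel) of 10 genes on each Phf8 KO and WT array, as points, beside the group's mean with its SD as a bar. Ctla2a and Ctla2b lie lower on all 3 KO arrays with a clear gap, while the gap of Pdgfrb and of Tjp1 between the groups is 0.01.

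The other genes of the Ctla2 and cathepsin list were mixed. Ctss, which encodes cathepsin S, had 11.49, 11.64 and 11.48 on KO arrays and 12.03, 12.03 and 12.02 on WT arrays (-0.49, standard error 0.09, adjusted p = 0.285 from limma). Ctsl, which encodes cathepsin L, had a difference of 0.04. Of all 11 genes of this list 5 were higher and 6 lower on average, with a median of -0.08. Ctla2a and Ctla2b are counted among the 6 lower, and the 5 higher were all cathepsin genes.

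Some markers of blood cells and macrophages were lower in KO as well. The 4 measured erythrocyte markers of 7 were all lower on average, with a median difference of -3.80. Their summed signal ran from 120 to 234 on KO arrays and from 1825 to 2076 on WT arrays. Alas2, Slc4a1 and Hbb-b2 had differences of -5.02, -4.07 and -3.53. Slc4a1 and Hbb-b2 lay below the filter level on every KO array and were kept through the WT arrays alone. Alas2 lay below it on KO replicates 2 and 3. The size of these differences therefore depends on the background, and no p is given. For Hba-a2, at -0.38, KO and WT overlapped. Of 12 measured markers of microglia and perivascular macrophages among 14, 10 were lower on average, with a summed signal of 11706 to 12351 in KO and 13344 to 13587 in WT. Most of that gap was Ctss, which is on this list too. Without it the sums of the other 11 were 9026, 8512 and 9490 on KO arrays and 9406, 9176 and 9208 on WT arrays, which overlap. The microglial receptor genes Csf1r and Cx3cr1 had differences of -0.01 and 0.25. Among them Pf4, a chemokine of platelets and macrophages, had a difference of -1.27 (adjusted p = 0.154 from limma). No measured marker of either list was at 0. The part of these cells in the fall of Ctla2a was not tested.

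Among the other endothelial genes, Kdr, the main VEGF receptor, was higher on the KO arrays and the rest had differences between -0.48 and 0.35. Of the 17 measured endothelial genes, 11 were higher and 6 lower on average, and the median difference was 0.05 (0.07 without Ctla2a), beside 0.01 over all genes. Kdr had log2 signals of 7.55, 7.50 and 7.52 on KO arrays against 6.60, 7.24 and 6.49 on WT arrays. The KO arrays were nearly alike, the WT arrays spread, and the groups did not overlap. WT replicates 1 and 3 lay less than 1 above the filter levels of those arrays, 5.83 and 5.95. The difference of 0.75 (standard error 0.24, a fold of 1.68) had an unadjusted p of 0.0154 and an adjusted p = 0.589 in limma. Itm2a, a membrane protein gene used as an endothelial marker, had 12.23, 12.47 and 11.96 on KO arrays and 11.86, 11.76 and 11.98 on WT arrays, so that KO replicate 3 lay within the WT range. Its difference was 0.35 (standard error 0.14, adjusted p = 0.659 from limma), and a second probe set gave 0.34. Vwf, the clotting factor stored in endothelium, had 7.18, 7.08 and 7.34 on KO arrays and 7.98, 7.84 and 7.21 on WT arrays. WT replicate 3 lay among the KO values, and the difference of -0.48 (standard error 0.24) had an adjusted p = 0.673 in limma.

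Esam, an adhesion protein of endothelial junctions, had 9.02, 8.99 and 9.04 on KO arrays and 8.94, 8.98 and 8.67 on WT arrays. These groups did not overlap, but by only 0.01, and the difference was 0.15. The angiopoietin receptor gene Tek and the VEGF receptor gene Flt1 had differences of 0.05 and 0.02. The 95% interval of Tek was -0.28 to 0.38 and that of Flt1 -0.36 to 0.39, so changes of that size are within the error. Cdh5, the cadherin of endothelial junctions, had -0.09, and the adhesion gene Pecam1 had -0.29 with KO values of 7.44, 6.45 and 7.12 against WT values of 7.46, 7.33 and 7.10. Of the transcription factor genes, Erg, Sox17 and Sox18 had differences of 0.21, 0.13 and 0.16. Fli1 had 7.76, 8.08 and 6.64 on KO arrays and 7.93, 7.78 and 7.97 on WT arrays, and KO replicate 3 lay far below the rest. Without that array its difference was 0.02, against -0.40 with it. Emcn, a sialomucin of capillaries and veins, had a difference of 0.21, Egfl7, a secreted factor of endothelium, 0.09, and Robo4, a guidance receptor of endothelium, -0.16. Eng, a co-receptor for TGF-beta, had a difference of 0.00, with a KO spread from 6.66 to 8.48 around WT values of 7.69 to 7.85. The difference was 0.56 without KO replicate 2 and -0.35 without KO replicate 3.

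**Figure D2:**
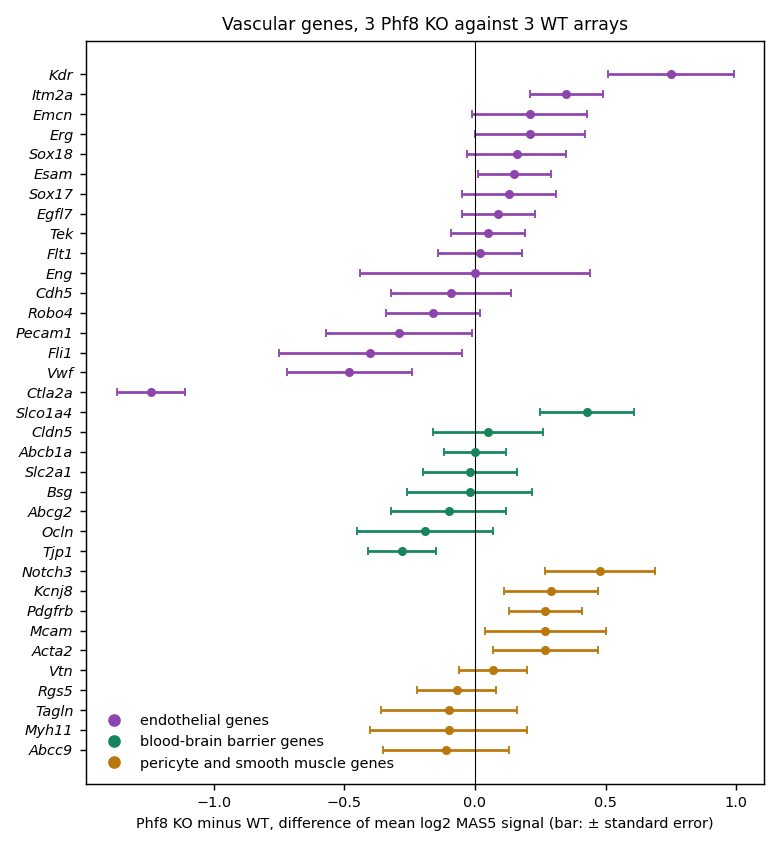
Difference of mean log2 MAS5 signal, Phf8 KO minus WT (x axis), with its standard error as a bar, for the 35 measured vascular genes, colored by group. Ctla2a lies at -1.24 and the other genes between -0.48 and 0.75.

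Of the 8 barrier genes, 0 passed in limma over all arrays, with Slco1a4 at an unadjusted p under 0.05 (7.48% of all genes). Of them 3 were higher and 5 lower on average, with a median difference of -0.02. Slco1a4, an organic anion carrier of brain endothelium, had 11.04, 11.06 and 10.49 on KO arrays and 10.57, 10.43 and 10.31 on WT arrays. KO replicates 1 and 2 lay above every WT array and KO replicate 3 did not. The difference was 0.43 (standard error 0.18, adjusted p = 0.659 from limma), and it was 0.62 (adjusted p = 0.0423) without KO replicate 3. Tjp1, the scaffold protein of tight junctions, had 11.58, 11.82 and 11.35 on KO arrays and 11.83, 11.83 and 11.91 on WT arrays. KO replicate 2 lay 0.01 below WT, and the difference was -0.28 (standard error 0.13, adjusted p = 0.669 from limma). Ocln, a membrane protein of tight junctions, had 9.59, 9.43 and 8.61 on KO arrays and 9.47, 9.55 and 9.18 on WT arrays, and its difference was -0.19 with KO replicate 3 and 0.11 without it. Abcg2, an efflux pump gene, had 9.80, 9.91 and 9.14 on KO arrays and 9.90, 9.61 and 9.66 on WT arrays, with a difference of -0.10 (0.14 without KO replicate 3).

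The efflux pump gene Abcb1a differed little. Its signals were 9.03, 9.12 and 9.12 on KO arrays and 9.06, 9.03 and 9.17 on WT arrays, a difference of 0.00 with a 95% interval of -0.27 to 0.28. Cldn5 had 9.25, 8.82 and 9.56 on KO arrays and 9.29, 9.27 and 8.90 on WT arrays, a difference of 0.05 (interval -0.45 to 0.55), and -0.12 without KO replicate 3. Slc2a1, the glucose transporter of the barrier, had a difference of -0.02 (interval -0.43 to 0.39). Its 3 probe sets were each highest on KO replicate 3, where the brightest had 12.20, against 11.61 and 11.53 on KO replicates 1 and 2 and 11.76 to 11.82 on WT arrays. Bsg, the partner protein of monocarboxylate carriers, had a difference of -0.02, with KO replicate 2 at 10.83 below the WT values of 11.24 to 11.59.

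By its brightest probe set, none of the pericyte and smooth muscle genes passed in limma, also at an unadjusted p under 0.05. Of the 10 measured genes of 11, 6 were higher and 4 lower on average, with a median difference of 0.17. Notch3, the Notch receptor of mural cells, had 8.14, 8.35 and 8.73 on KO arrays and 8.11, 8.05 and 7.63 on WT arrays. Pdgfrb, the receptor through which endothelial PDGF-B recruits pericytes, had 9.39, 9.44 and 9.27 on KO arrays and 9.26, 9.10 and 8.93 on WT arrays. Kcnj8, a pore subunit of a potassium channel opened when ATP is low, had 7.31, 7.37 and 7.46 on KO arrays and 6.94, 7.26 and 7.09 on WT arrays. These 3 of 10 were the mural genes whose groups did not overlap (9.56% of all genes had KO above WT without overlap), each by a gap of 0.01 to 0.06. Their differences were 0.48 (0.31 without KO replicate 3), 0.27 and 0.29, and their adjusted p = 0.661, 0.673 and 0.704 in limma. A dimmer Pdgfrb probe set had 6.84, 6.74 and 6.62 on KO arrays and 6.00, 6.35 and 6.01 on WT arrays, without overlap. Its difference was 0.62, with an unadjusted p of 0.0361 and an adjusted p = 0.782 in the limma fit over probe sets.

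Abcc9, the partner subunit of Kcnj8, had a difference of -0.11, and 0.15 without KO replicate 3. Rgs5, a regulator of G protein signaling, had -0.07, and 0.10 without that array. Vtn, the matrix protein vitronectin, had 0.07, and -0.01 without it. Mcam, an adhesion protein, had 0.27. Acta2, the actin of smooth muscle, had 10.20, 9.42 and 9.96 on KO arrays and 9.62, 9.57 and 9.59 on WT arrays. KO replicates 1 and 3 lay above WT and KO replicate 2 below it, for a difference of 0.27. Tagln, an actin-binding protein of smooth muscle, had 7.80, 6.89 and 7.49 on KO arrays and 7.55, 7.62 and 7.31 on WT arrays. Myh11, its myosin heavy chain, had 7.26, 6.31 and 6.52 on KO arrays and 6.86, 6.58 and 6.95 on WT arrays. All 3 smooth muscle genes were highest on KO replicate 1 and lowest on KO replicate 2, and the KO spread was wider than the WT spread for each.

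**Figure D3:**
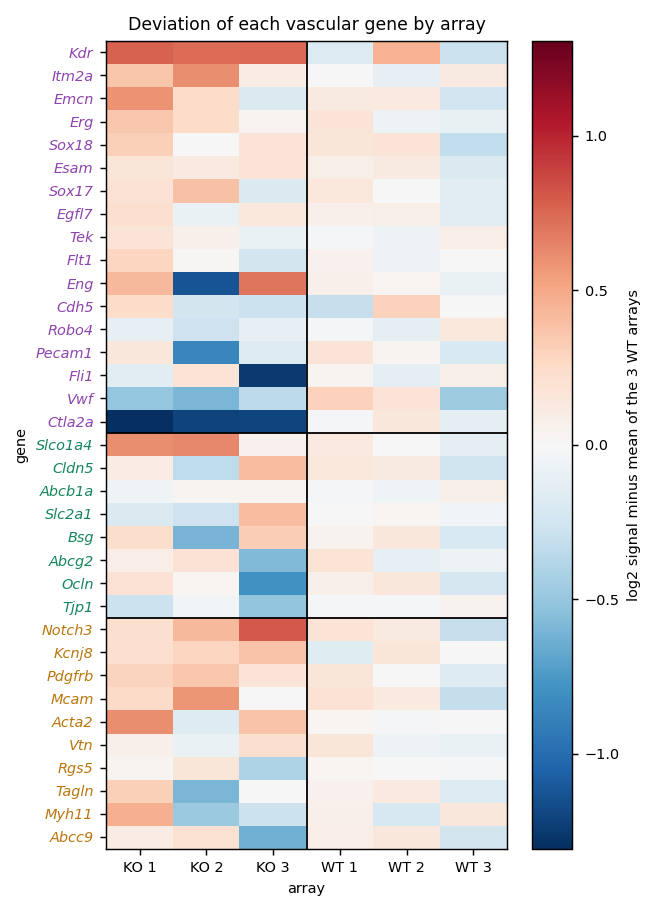
Deviation of log2 signal from the WT mean (color) for the 35 measured vascular genes, with arrays in columns and genes in rows grouped as endothelial, barrier and mural. Ctla2a is low on all 3 KO arrays, whereas Eng, Fli1, Ocln and the smooth muscle genes differ mainly between the KO arrays.

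Over all 35 measured genes, 20 were higher (beside 51.9% of all genes) and 15 lower on average, with a median difference of 0.02. Of the 34 other than Ctla2a, 0 passed an adjusted p of 0.05 in limma, beside 8 of 12903 genes (0.062%), and 3 (Kdr, Itm2a and Slco1a4) had an unadjusted p under 0.05, all higher in KO, beside 4.69% of all genes higher, 2.79% lower and 7.48% in either direction. The groups did not overlap for 7 of the 35, 5 with KO above WT (9.56% of all genes) and 2 with KO below WT (7.13%), beside 16.7% of all genes in either direction. The 2 below were Tjp1, by a gap of 0.01, and Ctla2a. Ctla2a was chosen for its lower signal, so its place in this count and the next is not a result. At least 1.5-fold differences were found for 2 of the 35, Kdr higher (4.15% of all genes) and Ctla2a lower (2.03%), beside 6.18% in either direction. In the fit over 27408 probe sets, 0 of the kept probe sets of vascular genes other than Ctla2a passed (6 probe sets passed in all, 0.0219%). Of the 55 with that of Ctla2a, 9 did not overlap between the groups (15.2% of all).

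A KO array was the highest for 80% of the 35 genes and the lowest for 62.9%, beside 69.5% and 64.3% of all genes. KO replicates 1, 2 and 3 were the highest array for 11, 9 and 8 of the 35 genes and the lowest for 2, 11 and 9. KO replicate 1 was highest for 31.4% of the vascular genes and 12.3% of all genes, and KO replicate 2 lowest for 31.4% and 19.8%. KO replicate 3 was highest for 22.9% of the vascular genes and 32.8% of all genes, and lowest for 25.7% and 36.4%. Among the WT arrays, replicate 3 was the lowest for 10 of the 35 (28.6%, beside 12.6% of all genes). Relative to the WT mean, the median of the 35 was 0.21, 0.03 and 0.00 on KO replicates 1, 2 and 3 and 0.06, 0.03 and -0.12 on WT replicates 1, 2 and 3.

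For 13 of the genes more than 1 probe set was kept, and the direction of the mean was shared by all of them for 7. Those of Rgs5 ran from -0.28 to -0.07 over 4 probe sets, and those of Slc2a1 from -0.14 to -0.02 over 3. The 4 of Flt1 ran from -0.48 to 0.09 and did not share a direction. On KO replicate 3 one Flt1 probe set had 9.09, above its WT values of 8.63 to 8.75, while another had 6.30, below its WT values of 7.07 to 7.33. The 4 of Egfl7 ran from -0.01 to 0.60, with the largest on the dimmest.

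Other genes of the vessel wall were taken as further lists, which share Sox17 with the endothelial genes. Lef1 is on the other endothelial, the Wnt and the thalamus lists, and Synpo2 on the other mural and the thalamus lists. Both were highest on KO replicate 3, at 9.12 and 10.49. Beside the counts of all these lists, 0.062% of all genes passed in limma and 7.48% had an unadjusted p under 0.05. Of 39 measured other endothelial genes, 23 were higher and 16 lower on average, 0 passed in limma (before adjustment, 2 had a p under 0.05), and the median was 0.03. Adgrl4, an adhesion receptor gene of endothelium, had 8.84, 8.68 and 8.70 on KO arrays and 9.15, 9.13 and 9.24 on WT arrays, without overlap (-0.43, adjusted p = 0.563). Slc6a6, the taurine carrier, had a difference of 0.28, and Hspb1, a small heat shock protein gene, -0.88 over KO values from 8.23 to 10.22 (-1.40 without KO replicate 3 and -0.40 without KO replicate 2). Of 34 angiogenic ligands and receptors, 0 passed in limma (2 unadjusted), 21 had a higher and 13 a lower mean, and the median was 0.06. They included Angpt1, the pericyte ligand of Tek (0.56, adjusted p = 0.648), Nrp2, a VEGF co-receptor (0.39), and Hey1, a Notch target (0.25). Of 16 genes of the Wnt pathway that maintains the barrier, 11 were higher and 5 lower, 0 passed in limma (1 unadjusted), and the median was 0.08. Ndp, a ligand of that pathway, had 8.23, 8.33 and 8.35 on KO arrays and 7.95, 7.56 and 7.91 on WT arrays (0.49, adjusted p = 0.592), while the target gene Axin2 had 0.32 and the co-receptor gene Tspan12 -0.48 (-0.20 without KO replicate 3).

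Of 22 measured other mural cell genes, 0 passed in limma (2 unadjusted), 15 had a higher and 7 a lower mean, and the median was 0.05. Gucy1a1, a subunit of the nitric oxide receptor that relaxes smooth muscle and that neurons express too, had 10.04, 10.36 and 10.10 on KO arrays and 9.22, 9.68 and 9.75 on WT arrays (0.62, adjusted p = 0.563). Ednrb, an endothelin receptor also made by astrocytes, had 0.46, and the pericyte proteoglycan gene Cspg4, which oligodendrocyte precursors share, 0.61 (0.29 without KO replicate 3). Of 15 vascular basement membrane genes, 0 passed in limma (0 unadjusted), 8 had a higher and 7 a lower mean, and the median was 0.12. The collagen gene Col4a2 had a difference of -0.26 (-0.14 without KO replicate 3), the laminin gene Lama2 0.23 and the perlecan gene Hspg2 -0.20.

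**Figure D4:**
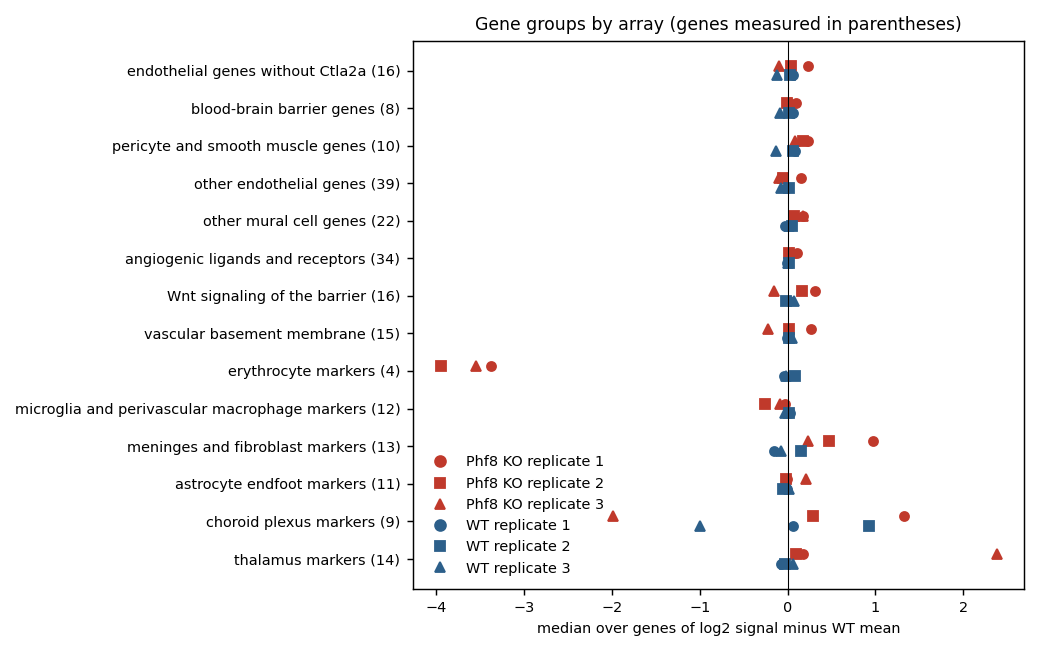
Median log2 signal of each gene group on each array minus the WT mean (x axis), with KO arrays in red and WT arrays in blue, and a marker shape for each replicate. The vascular groups stay between -0.22 and 0.31 on every array, the erythrocyte markers lie at -3.38 to -3.95 on the KO arrays and the thalamus markers at 2.38 on KO replicate 3.

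Markers of neighbouring tissue differed between the arrays too. Of 13 measured meningeal and fibroblast markers among 15, 10 were higher on average in KO, with a median difference of 0.48, and their medians were 0.97, 0.47 and 0.23 on KO replicates 1, 2 and 3. Their summed signal was 9940, 7186 and 4719 on these arrays and 3986 to 5461 on WT arrays, and none of them was at 0. Among them the collagen genes Col1a2 and Col3a1 had differences of 1.28 and 1.29 (adjusted p = 0.305 and 0.460 from limma) and Fmod, fibromodulin, 1.42. The medians of the pericyte and smooth muscle genes were 0.23, 0.18 and 0.08 on the same KO arrays, and those of the endothelial genes 0.22, 0.02 and -0.11. On WT replicates 1, 2 and 3 the meningeal medians were -0.15, 0.15 and -0.08, in another order than the mural medians of 0.08, 0.06 and -0.13. The part of meningeal or choroid plexus vessels in the mural and endothelial values was not tested. Of 11 astrocyte endfoot markers, 7 had a higher and 4 a lower mean (median 0.05), and Aqp4, the water channel of the endfeet around vessels, had a difference of 0.33 (adjusted p = 0.661). Agt, angiotensinogen, and Kcnj10, a potassium channel gene, had 0.75 and 0.52, with the highest values of 10.01 and 12.03 on KO replicate 3, and -0.09 and 0.06 without that array.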

How the data were processed

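RNA from hippocampus was measured in 3 Phf8 KO and 3 WT samples on Affymetrix mouse arrays. The authors deposited log2 MAS5 signal for 45037 probe sets, scaled to a like trimmed mean on each array (497.5 to 498.2 after 2% is trimmed at each end). MAS5 and affy are named, with no version, in the submitters' processing notes. The study's methods add GeneSpring and the removal of probe sets called Absent, but detection calls were not used here.

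A filter at the 40th percentile on at least 3 of 6 arrays stood in for Absent calls and kept 27408 probe sets. A platform table gave 1 gene for 34945 probe sets, several for 932 and none for 9160. The brightest kept probe set represented each of 12903 genes. The KO and WT means were compared in limma 3.58.1 under R 4.3.3 (lmFit, eBayes with trend, Benjamini-Hochberg). The KO against WT fit over 12903 genes was tested on simulated data and recovered 48 of 100 genes changed by 1 and 80 of 100 changed by 2 on the log2 scale, with 8 false calls. The simulated noise was normal, independent between genes and of 1 SD a gene for both groups. It held no array unlike the others, as KO replicate 3 is, so these rates describe that setting and not these arrays. The number of arrays (3 a group) limits the precision. The smallest p that an exact two-sided permutation test allows here is 0.1.

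The members, gene lists and tests were chosen with earlier results of these data known. Ctla2a is given in full, with, in each vascular group, up to 4 genes with the smallest p and every gene without overlap between KO and WT, and up to 3 genes of each other list with the smallest p. Other listed genes are named by their differences, as are second probe sets. Alternatives were quantile normalization, median centring, other filters, 16 signal units added before log2 was taken, a robust fit and one with no trend, array weights estimated gene by gene, the replicate number as a block, the mean of a gene's probe sets, and leaving out each array. Upstream sequences of 250 bases came from RefSeq (GRCm38.p6) and were aligned with Biopython 1.88.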

Additional observations from a re-analysis of the deposited data

How the results depend on the processing

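With 3 arrays a group, small differences are not resolved. Ctla2a kept its direction in every setting run, between -1.30 and -1.17. The count of changed genes (8 of 12903) was 0 without a trend (980 at an unadjusted p under 0.05), 115 with array weights and 4 with the replicate block, and 0 to 53 with an array left out, with 53 without KO replicate 3, 1 without KO replicate 1 or WT replicate 3, and 0 without KO replicate 2, WT replicate 1 or WT replicate 2 (1647, 396 and 558 unadjusted). The count of changed probe sets (6) was 1 with no filter, 0 without a trend, 307 with array weights, 2 with the replicate block and 0 to 64 with an array left out. Samples of equal number were not taken as pairs, since their deviations correlated at -0.04, 0.07 and 0.13. Slco1a4 passed with array weights (0.56, adjusted p = 0.0434) and without KO replicate 3. The array weights were estimated gene by gene because the REML estimate did not converge. The causes were not tested.

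The mural median was 0.27 with no filter and 0.07 to 0.19 with an array left out. The endothelial median was -0.01 to 0.12 and the barrier median -0.10 to 0.05 with an array left out. Of 568 values of single genes, 536 kept their side of the threshold and were not counted as changing sign. A difference that rounds to 0.00 has no sign in this count. Eng and Abcb1a, at 0.00 over all arrays, could therefore not be counted as changing sign. Differences near 0 changed sign. Flt1 was -0.01 after median centring and -0.14 as the mean of its probe sets, and Vtn was -0.02 as such a mean. With array weights, Cdh5 was 0.16, Cldn5 -0.01, Ocln 0.09, Abcg2 0.04, Bsg 0.06, Rgs5 0.03, Abcc9 0.06, Tagln 0.11 and Myh11 0.25. With an array left out, the ranges were -0.26 to 0.06 for Cdh5, -0.11 to 0.15 for Flt1, -0.01 to 0.12 for Tek, -0.69 to 0.02 for Fli1, -0.35 to 0.56 for Eng, -0.12 to 0.25 for Cldn5, -0.38 to 0.11 for Ocln, -0.23 to 0.11 for Slc2a1, -0.25 to 0.14 for Abcg2, -0.19 to 0.28 for Bsg, -0.18 to 0.10 for Rgs5, -0.27 to 0.15 for Abcc9, -0.01 to 0.14 for Vtn, -0.30 to 0.15 for Tagln and -0.38 to 0.09 for Myh11.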
